A study of Mus musculus with 4 samples.

Results

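The Midn and Cirbp cluster is a stretch of mouse chromosome 10 on which binding peaks of NR6A1 lay close together. Its members are the peaks of both deposited lists whose midpoint lies at chr10:79590000-79645000 on build mm9, a window of 55.0 kb. The window was chosen by the peaks themselves, because 8 neighbouring regions present in both lists made it the second largest such cluster, so its peak counts and the sharing of its peaks are a description and were not tested. It held 10 of the 21507 peaks of NR6A1 replicate 1 and 9 of the 16160 peaks of replicate 2. Merged where they overlapped, these were 10 of the 28444 regions in either list.

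The peaks come from chromatin immunoprecipitation followed by sequencing (ChIP-seq), which recovers the DNA fragments that a protein holds. In the NR6A1 group (n = 2), C57BL/6 mesenchymal stem cells (MSCs, the stromal precursors of bone, fat and cartilage) of genotype Dicer f/f made Flag-HA-NR6A1 from a retrovirus. In the vector group (n = 2), the same Dicer f/f cells carried the retroviral vector. The titles of the vector libraries and the names of the NR6A1 lists carry DicerWT, that is, wild-type Dicer. Both groups share the floxed Dicer alleles, the immortalized monoclonal origin, the puromycin selection and the antibody, anti-HA. The cells are thus of clonal origin, and the protein followed is a tagged and virally expressed NR6A1, not the cells' own. The vector libraries were not analysed here, and the antibody's background is therefore not shown beside the peaks. The labels do not say whether the replicates were separate cultures.

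NR6A1, or germ cell nuclear factor, is a nuclear receptor with no known ligand that mostly represses its targets, among them the pluripotency gene Pou5f1 as embryonic cells differentiate. It binds DNA as a homodimer on a direct repeat of the half-site AGGTCA with no base between the copies (DR0). Midn encodes midnolin, a nuclear protein with a ubiquitin-like domain that carries short-lived nuclear proteins, such as the products of immediate early genes, to the proteasome. Cirbp encodes the cold-inducible RNA-binding protein, which rises in mildly cooled or stressed cells and binds messenger RNAs through an RNA recognition motif.

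In the RefSeq gene order on GRCm38.p6, Midn comes directly before Cirbp with 0 annotated genes starting between them. On the Midn side the next protein-coding genes are Atp5d, a subunit of the mitochondrial ATP synthase, Cbarp, a regulator of voltage-gated calcium channels, and Stk11, the tumour suppressor kinase LKB1. On the Cirbp side they are Fam174c, Efna2, the ephrin-A2 ligand of Eph receptors, and Pwwp3a. The names of the window's genes come from the choice of the window. That gene table is of another build than the peaks, so no peak is placed at a gene start, an exon or an intron here.

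The promoters of both genes are shown because the half-site of NR6A1 can be looked for in them, from 250 bases before to 50 bases after a RefSeq start. Capitals mark AGGTCA, searched on both strands. The Midn sequence is chr10:80148022-80148321 and the Cirbp sequence chr10:80167589-80167888, both on the plus strand of GRCm38.p6, and neither position can be set against the mm9 peaks.
Midn promoter: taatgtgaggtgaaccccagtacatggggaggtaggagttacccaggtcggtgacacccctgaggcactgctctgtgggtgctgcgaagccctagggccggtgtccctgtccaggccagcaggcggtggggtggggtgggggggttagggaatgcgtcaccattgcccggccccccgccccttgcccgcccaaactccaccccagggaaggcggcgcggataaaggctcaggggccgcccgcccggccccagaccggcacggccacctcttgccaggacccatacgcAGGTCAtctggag
Cirbp promoter: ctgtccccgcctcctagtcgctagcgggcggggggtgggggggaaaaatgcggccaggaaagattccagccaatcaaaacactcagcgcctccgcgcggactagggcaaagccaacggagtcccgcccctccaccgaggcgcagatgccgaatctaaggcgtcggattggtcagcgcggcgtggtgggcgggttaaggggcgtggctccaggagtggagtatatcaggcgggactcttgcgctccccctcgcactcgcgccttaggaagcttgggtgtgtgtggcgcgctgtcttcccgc

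The Midn promoter held AGGTCA once, at bases 288 to 293 of the 300, after the start. The Cirbp promoter shown held none, and neither did the promoter of a second RefSeq start of either gene. AGGTCA was thus in 1 of the 4 promoters of the genes, against 16.3% of the 32851 mouse promoters of this length in the table. The longer motif TCAAGGTCA, which is a half-site with the last bases of a copy directly before it and so a part of the full repeat, was in 0 of the 4 and in 0.423% of all promoters. With 1 mismatch allowed it was again in 0 of the 4, against 7.46% of all promoters. The 4 sequences were rich in G and C, between 61.7% and 70.0%, against a median of 52.7% over all promoters. A match of letters is not a bound site, and the sequences under the peaks were not read, since no mm9 genome was used here.

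Within the window, 8 regions held peaks of both replicates. They lay between 79603880 and 79629016, a span of 25.1 kb, and are numbered 1 to 8 by position. The strongest was region 5, followed by region 2, and this order was the same in both lists. Strength is given here by the authors' peak score, taken as the log-transformed p-value of the peak caller MACS, which starts just above 200 in both lists and depends on the depth and background of its own library. Read depth is unknown from the lists, so scores are ranked within a list, and a ratio between the lists includes any difference of depth.

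**Figure D1:**
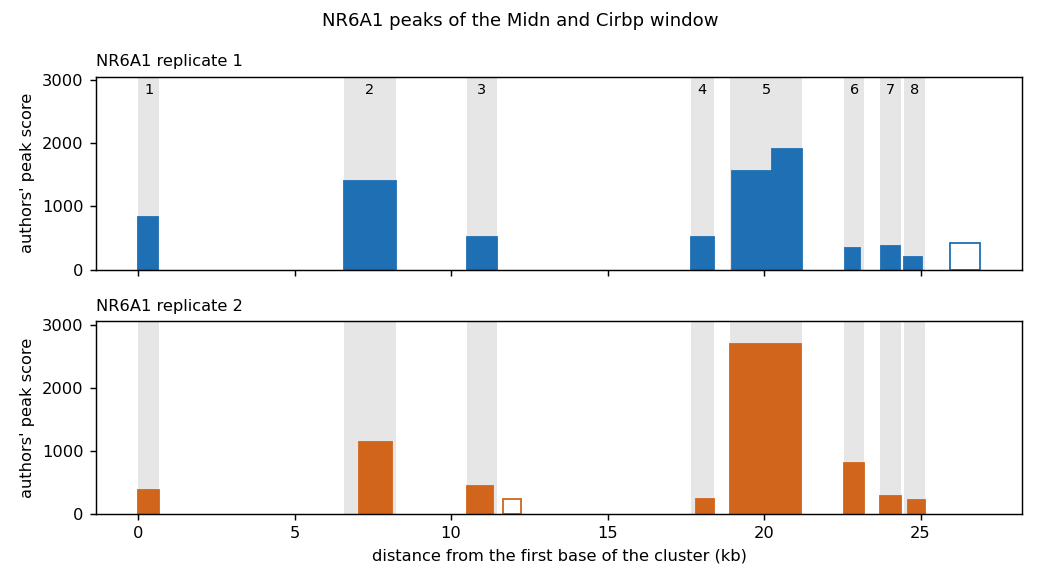
Peaks of the Midn and Cirbp window in NR6A1 replicate 1 (top) and replicate 2 (bottom), each drawn to its width, with the distance from the first base of the cluster in kb on the x axis and the authors' peak score on the y axis. Grey bands are the 8 numbered regions found in both lists and open bars are peaks with no partner; region 5 is the tallest in both lists, with scores up to 1915.85 in replicate 1 and 2685.32 in replicate 2.

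Region 5, at 79622788 to 79625105, was drawn differently in the lists. Replicate 1 had 2 peaks there, at 79622857 to 79624130 with a score of 1559.48 and at 79624144 to 79625105 with a score of 1915.85, and 13 bases separated them. Replicate 2 had a single peak across both, at 79622788 to 79625059, with a score of 2685.32. That peak was 2272 bp wide, which ranked 22 by width of the whole list, and its score ranked 316 of 16160 and 23 on chromosome 10. The better replicate 1 peak ranked 980 of 21507 and 102 on chromosome 10. Such a many-to-one match was uncommon: 174 replicate 2 peaks, or 1.92% of the 9042 with a partner, overlapped more than 1 replicate 1 peak.

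Region 2, at 79610460 to 79612115, was the second strongest. Its score was 1401.22 in replicate 1, above 91.2% of that list, and 1133.2 in replicate 2, above 88.5%. The replicate 1 peak was 1656 bp wide and ranked 46 by width of 21507. The replicate 2 peak, 1053 bp wide, lay wholly inside it and covered 63.6% of it, which put the midpoints 192 bp apart.

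Regions 1, 3 and 4 were of middle strength in replicate 1. Region 1, at 79603880 to 79604560, scored 831.09 in replicate 1 and 371.77 in replicate 2, a 2.24-fold higher score in replicate 1, although its edges differed little, with midpoints 11.5 bp apart. Region 3, at 79614389 to 79615343, scored 520.43 and 442.69 in replicates 1 and 2 and was number 4 of the 8 by score in both. Region 4, at 79621540 to 79622274, scored 508.57 in replicate 1 and 231.16 in replicate 2. The peaks of region 4 end on the same base in both lists, and their scores differed 2.20-fold. In replicate 2 its score was above only 12.7% of the list, so it stood near the lower end there and above the median in replicate 1.

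Regions 6 to 8 were the weakest of the 8 in replicate 1 and closely spaced. Region 6, at 79626437 to 79627086, went the other way from regions 1 and 4, with a score of 341.96 in replicate 1 and 798.78 in replicate 2. It was number 7 of the 8 by score in replicate 1 and number 3 in replicate 2, the largest change of place in the cluster. Region 7, at 79627573 to 79628266, scored 376.72 and 277.55 in replicates 1 and 2, and its midpoints were 7.5 bp apart. Region 8, at 79628350 to 79629016, was the weakest in both lists, with 202.76 in replicate 1 and 210.94 in replicate 2. These scores are just above the lowest in each list, 200.01 and 200.04, so region 8 is counted as found in both lists by a small margin.

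Each list had 1 peak with no partner in the window. In replicate 2 it lay between regions 3 and 4, at 79615531 to 79616099, with a score of 236.96, above 14.9% of the list. In replicate 1 it lay beyond region 8, at 79629805 to 79630788, with a score of 414.88, above 49.7% of the list. The replicate 2 peak began 187 bp after region 3 and the replicate 1 peak 788 bp after region 8. Without read counts, a site absent from a list and a site slightly below that list's threshold look the same.

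The regions were unevenly spaced, with the denser end after region 3. Regions 4 to 8 lay within 7.48 kb, and the gaps between them were 0.513, 1.33, 0.486 and 0.083 kb in order of position. The gaps between regions 1 to 4 were 5.90, 2.27 and 6.20 kb. Outside the window, the nearest region in both lists on the lower side ended 35.8 kb before region 1, at 79566868 to 79568051, with scores of 481.32 in replicate 1 and 2264.82 in replicate 2. The nearest on the higher side began 82.5 kb after region 8, at 79711534 to 79712473, with scores of 1331.29 and 457.87 in replicates 1 and 2. The nearest single peaks outside were those of replicate 1 at 79567339 to 79567915 and 79658958 to 79659276 and those of replicate 2 at 79570263 to 79570834 and 79711550 to 79712463, so the edges of the window fall in stretches without peaks.

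The window was set against the rest of chr10:79000000-80000000. It had 18.2 peaks per 100 kb in replicate 1, against 2.75 in the rest, a ratio of 6.61. In replicate 2 it had 16.4 peaks per 100 kb, against 2.12 in the rest, a ratio of 7.73. The 16 other stretches of the same width that fit whole, from 79040000 to 79975000, held 0 to 6 peaks of replicate 1 each. They held 0 to 4 peaks of replicate 2 and 0 to 3 regions in both lists, against 10, 9 and 8 in the window. The ends of the 1 Mb beyond these stretches were not counted. The stretch just before the window had the highest or joint highest counts of these 16, with 6 and 4 peaks and 3 regions. Since this density chose the window, the ratios carry no test.

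**Figure D2:**
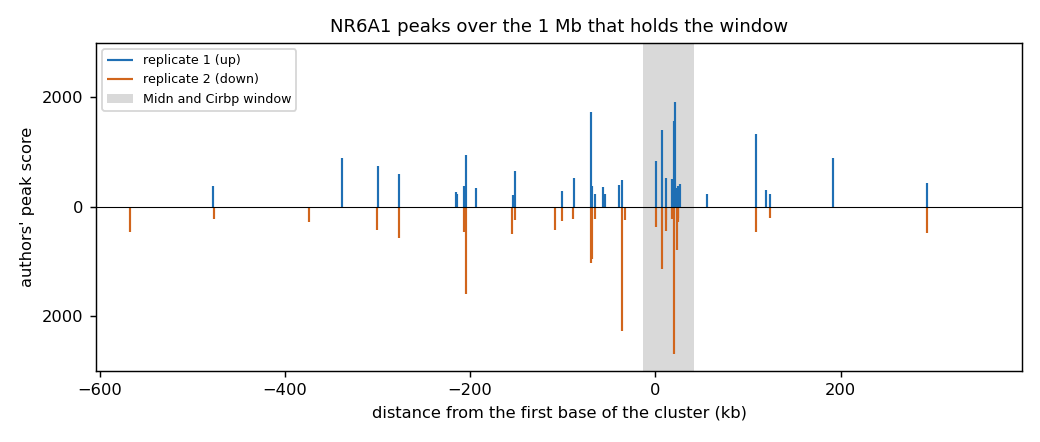
Peaks of the 1 Mb that holds the window, with the distance of each midpoint from the first base of the cluster in kb on the x axis and the authors' peak score on the y axis, upward for NR6A1 replicate 1 and downward for replicate 2. The grey band is the Midn and Cirbp window, which held 10 and 9 peaks, against 26 and 20 in the rest.

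Peaks of the window were mostly matched between the lists. In replicate 1, 9 of 10 had a partner, that is, a peak of the other list overlapping by at least 1 bp, against 14 of 26 in the rest of the 1 Mb and 42.7% of the whole list. In replicate 2, 8 of 9 had one, against 14 of 20 in the rest and 56.0% of the whole list. The choice of a cluster of shared regions fixes a high share, so nothing is read from it. By length, 6837 of the 9909 bp covered by either list in the window were covered by both, or 69.0%. This share was 42.1% in the rest of the 1 Mb and 29.4% genome-wide. The same choice raises it in the window, so nothing is read from it either.

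The scores of the window did not stand on one side of those around it. In replicate 1 the lowest, median and highest were 202.76, 514.5 and 1915.85 in the window, against 211.19, 378 and 1726.42 in the rest of the 1 Mb. In replicate 2 they were 210.94, 371.77 and 2685.32 in the window, against 204.56, 438 and 2264.82 in the rest. The median was thus higher in the window in replicate 1 and lower in replicate 2, and the ranges overlapped almost wholly. With the upper 50% of each list by score, it was higher in the window in replicate 2 as well, at 966, against 494 in the rest. Scores of 1000 or more were held by 3 of 10 window peaks in replicate 1, against 15.9% of the list, and by 2 of 9 in replicate 2, against 14.0%, and these peaks all belong to regions 2 and 5. The peaks of the window were wider in replicate 1, with a median of 841 bp. The median width was 586 bp in the rest of the 1 Mb and 538 bp in the whole list. In replicate 2 the median width was similar, at 681 bp in the window and 676 bp in the rest. The whole list of replicate 2 had 613 bp.

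Partner peaks of the window ranked alike in part. Over its 9 partner pairs the log2 ratio of scores, replicate 1 over replicate 2, ran from -1.22 in region 6 to 1.16 in region 1, with a median of 0.23 and an SD of 0.81. The score was higher in replicate 1 in 5 pairs and in replicate 2 in 4, and 6 of the 9 pairs had scores within 2-fold. Region 5 enters these values as 2 pairs that share 1 replicate 2 peak, so the 9 pairs are not separate. In the rest of the 1 Mb the median log2 ratio was 0.11 with an SD of 1.03 over 14 pairs, and over all 9223 pairs it was 0 with an SD of 1.12. Across the 8 regions, taking the best score in each list, Spearman's rho was 0.71 and Pearson's r of log2 scores 0.78. Across 14 regions in the rest they were 0.62 and 0.49, and across all 9009 regions 0.40 and 0.44. These points share both libraries and are not independent samples, so the values are a description.

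**Figure D3:**
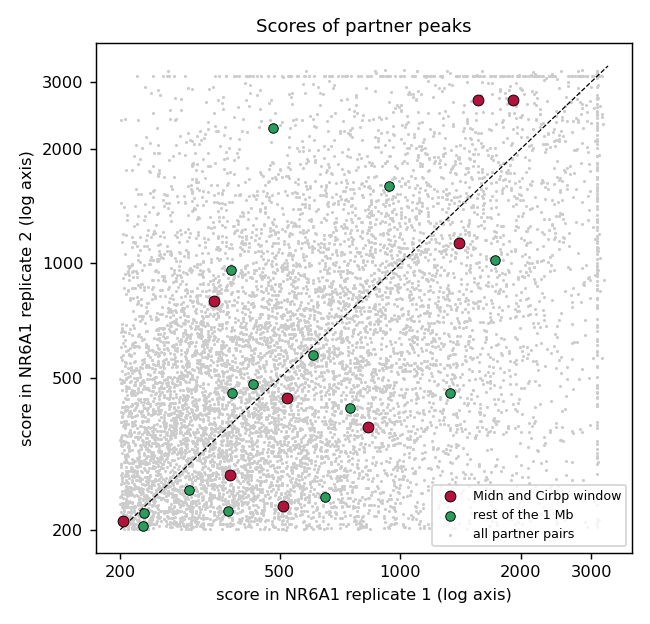
Scores of partner peaks in NR6A1 replicate 1 (x axis) and replicate 2 (y axis), both on log axes, for the 9 pairs of the Midn and Cirbp window, the 14 pairs of the rest of the 1 Mb and all 9223 pairs; the dashed line marks equal scores. The window's pairs run from the low corner, with 202.76 and 210.94, to the 2 pairs of region 5 at 2685.32 in replicate 2.

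Genome-wide, regions in both lists were joined into a cluster where no more than 10 kb parted neighbours, which gave 292 clusters of at least 3 regions. The cluster at Midn and Cirbp stood between a cluster of 12 regions (chromosome 6, 52154124 to 52210125) and a cluster of 7 (chromosome 11, 8574645 to 8605766). The Midn and Cirbp cluster was the shortest of these, at 25.1 kb, against 56.0 and 31.1 kb. It had 3.18 regions per 10 kb, against 2.14 on chromosome 6, 2.25 on chromosome 11 and a median of 2.95 over the 292 clusters. Regions per 10 kb are counted over the span from first to last base, which gives higher values to clusters of few regions. Of the 292 clusters, 221 had 3 regions, so 3.18 and 2.95 are not like measures of spacing. The median gap of the Midn and Cirbp cluster was 1.33 kb, against 3.75 kb on chromosome 6, 4.60 kb on chromosome 11 and 3.49 kb as the median over the 292 clusters. Its regions were not the strongest. Their median best score was 514.5 in replicate 1, against 773 on chromosome 6 and 430 on chromosome 11. In replicate 2 it was 407, against 896 and 768. Clusters that differ in number of regions were picked by that number, and their spacing was not tested. Among the 8 clusters of 6 regions, one on chromosome 17 at 29183882 to 29201307 had 3.44 regions per 10 kb and a median gap of 0.945 kb, and one on chromosome 3 at 95491744 to 95511990 had a median gap of 1.18 kb, so both had a smaller median gap than the cluster at Midn and Cirbp.

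**Figure D4:**
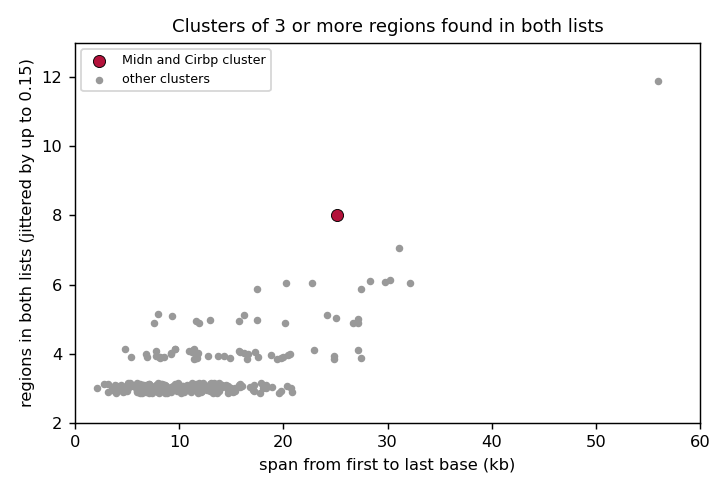
Clusters of 3 or more regions found in both lists, with the span in kb on the x axis and the number of regions on the y axis, jittered so that points do not hide each other. The Midn and Cirbp cluster has 8 regions in 25.1 kb, below the one with 12 regions in 56.0 kb.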

How the data were processed

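The submitters' processing notes name Bowtie 0.12.7, MACS and build mm9 but not what each did. The control library, the peak threshold and the version of MACS are not given in the sources used here. The authors deposited 1 peak list for each NR6A1 library, not pooled, with start, end and a peak score. The score was read as MACS's log-transformed p-value from its range. Depth is unknown, so no count test was possible.

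Peaks overlapping by at least 1 bp were partners, and connected partners were merged into regions (Python 3.11.15, numpy 2.4.6, pandas 2.3.3, scipy 1.17.1). Counts were checked with bedtools 2.31.1 and on simulated lists. Positions count the first base as 1. Percentiles are shares of a list with a lower score. Gene order and promoters are RefSeq's on GRCm38.p6, and both genes matched by symbol. Named genes are Midn, Cirbp and up to 3 neighbours on each side, and every peak of the window is given. Members, lists and the score limit of 1000 were chosen with earlier results of these data known. No test was run.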

Additional observations from a re-analysis of the deposited data

How the results depend on the processing

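Of 74 values under an alternative, 48 stayed within 1.5 times for a count or within 1 SD for other values, and 26 moved. The SD was that between the replicates, or that over pairs for the ratio of scores. Some of the 48 could not move, so the tally is no measure of stability. No peak of the 1 Mb scored 3100 or more, so leaving out such peaks changed nothing. Replicate 2 was already the shorter list, so equal list sizes left its peak count, median scores and density ratio as they were. The window's own median scores do not depend on what is taken as the rest. With midpoints within 100 bp in place of overlap, 5 peaks of each replicate had a partner, and 5 regions and a chain of 5 were left of 8. With the upper 50% of each list by score, 6 peaks of replicate 1 and 4 of replicate 2 were left, of which 4 and 3 had a partner, in 3 regions that formed a chain of 3. By construction median scores then rose, to 1116 in the window against 748 in the rest in replicate 1 and to 966 against 494 in replicate 2, so the median was higher in the window in both. The density ratio became 9.37 and 5.73. The median log2 ratio of scores changed sign, to -0.13, but stayed within its SD of 0.81 and counts among the 48. Equal list sizes dropped only the lowest scores of replicate 1. By construction this raised its rest median, to 481, and its density ratio became 8.14. Set against the rest of chromosome 10 (length from GenomeInfoDb), the ratio was 14.3 and 19.6 and the rest median in replicate 1 was 454. With 10 kb added on each side the window still held 10 and 9 peaks, so counts and median scores stayed. The change of length alone lowered the density ratio, to 4.74 and 5.55. Narrowed to the cluster, the window held 9 and 9 peaks in a shorter length. The density ratio then rose by construction, to 12.9 and 17.5. Gaps of at most 5 kb left a chain of 5 regions. For shifts not described here as following by construction or from length, the cause was not tested.

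No paired analysis was possible because no list of the vector group was used. Leaving out a replicate leaves no partners to count. Peaks were not placed relative to gene starts, and motifs were not searched under peaks, for want of an mm9 annotation and genome here.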

Other observations

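No half-site was found in the promoters of the genes beside Midn and Cirbp. The 8 promoters in the table of Stk11, Cbarp, Atp5d, Fam174c, Efna2 and Pwwp3a held AGGTCA in 0 cases, against 16.3% of all promoters. TCAAGGTCA with up to 1 mismatch was in 0 cases, against 7.46% of all promoters. The promoters of Atp5d, at 80142025 to 80142324 and 80142065 to 80142364, overlap, so the 8 are not separate sequences. With so few promoters, nothing is read from these counts. Their share of G and C ran from 52.0% to 74.7%, against 61.7% to 70.0% in the 4 promoters of Midn and Cirbp.

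The rest of the 1 Mb held a smaller cluster of 3 regions at 79533661 to 79538419, within 4.76 kb. Its best score was 1726.42 in replicate 1 and 1021.87 in replicate 2. The nearest region before the window, at 79566868 to 79568051, had the lowest log2 ratio of scores of the 14 pairs around it, at -2.23, with 481.32 in replicate 1 and 2264.82 in replicate 2.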
